A study of Physcomitrium patens with 24 samples.

Results

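The loci described here are stretches of RNA that were called as protein-protected by the single-strand-specific RNase and never by the RNase that cuts paired RNA. Overlapping sites on the same strand of the 27 chromosomes were joined across 3 site lists (0, 30 and 60 min) at an overlap of at least 1 nt, and a joined locus was kept when its call names held ssRNase alone. This left 2716 of 70742 loci (3.84%), which are 13.7% of the 19778 loci with any ssRNase call. A further 17062 loci were called with both RNases (both-RNase loci) and 50964 with dsRNase alone. The ssRNase-alone loci covered 77.364 kb, or 1.98% of the 3911.78 kb covered by all loci. They were chosen by their calls: the absence of a dsRNase call in all 6 dsRNase sets, and the presence of an ssRNase call in at least 1 of 6, are properties of the choice and not results.

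Protein interaction profile sequencing (PIP-seq) crosslinks proteins to RNA, digests the RNA with a nuclease, and compares the surviving fragments with those of a digestion made after the proteins were removed. An ssRNase such as RNaseONE cuts unpaired bases, so a bound protein can show its footprint only where the naked RNA would have been cut. A dsRNase such as RNase V1 cuts paired or stacked bases, and its footprints therefore lie in RNA that is paired when the protein is absent. Abscisic acid (ABA) is a plant hormone made under drought and other water stress, and in mosses such as Physcomitrium patens it acts on the protonema, the filamentous juvenile tissue.

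The data came from protonema of Physcomitrium patens in liquid culture, collected 60 or 30 min after ABA was added, or as the 0 min control, which received the solvent methanol. All samples were crosslinked with formaldehyde. Each of the 12 groups, defined by time, RNase and protein state, had 2 replicates, for 24 libraries in all. The protein-bound state was digested with proteins in place, and the structure-only state after proteinase K. No group without ABA at 30 or 60 min is in the labels, so ABA and elapsed time cannot be told apart. The dose is stated as 10 µM in one text (the design) and as 10 mM in another (the treatment protocol). A call set is 1 time, RNase and replicate, and rests on 1 protein-bound and 1 structure-only library. The ssRNase and dsRNase sets of a replicate came from 1 divided sample, and nothing says that the 2 replicates were separate cultures, so p-values reflect a spread that may be technical. The lists hold no read counts or RNA levels, so the depth is unknown, and less RNA at a locus cannot be told apart from less protection. For the same reason a missing dsRNase call shows that no site passed the authors' threshold there, and not that the RNA was unprotected.

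One stretch stood apart and is named first because many values move with it. On the minus strand of chromosome 20, 534 loci lay between 2413 and 249548 with gaps that never reached 20000 nt, and the next locus was 45851 nt further on. This array held 193 ssRNase-alone loci, which is 36.1% of its loci and 7.11% of all ssRNase-alone loci. Its loci recurred at regular steps, as described below, so its members may share reads among near-identical copies. Most comparisons between times and with both-RNase loci are given with and without it.

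The first question was how many such loci each ssRNase set held along the ABA series. At 0 min, 953 ssRNase-alone loci were called in replicate 1 and 973 in replicate 2. At 30 min the numbers were 953 and 1361, and at 60 min they were 623 and 421. Both 60 min sets lay below all sets of the earlier times, while the 30 min replicates lay far from each other, and replicate 1 equalled the lower 0 min set. The means for 0, 30 and 60 min were 963 ± 14.1, 1157 ± 288.5 and 522 ± 142.8 (SD, n = 2). The mean difference was -441 for 60 against 0 min and -635 for 60 against 30 min, and each had p = 0.333 in an exact two-sided permutation test (n = 2), the smallest p that this design allows. For 30 against 0 min the difference of 194 had p = 1 in the same exact permutation test (n = 2), and without replicate 2 of 30 min it was -12. Outside the array the means were 841.5 ± 43.1, 1040 ± 301.2 and 428.5 ± 118.1 (SD, n = 2) at 0, 30 and 60 min. There too both 60 min sets lay below all sets of the earlier times.

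The sets differed in size, so the same loci were also expressed as a share of all loci called in a set. At 0 min they were 12% of 7947 loci in replicate 1 and 14.9% of 6525 in replicate 2. At 30 min they were 11.8% of 8044 and 10.3% of 13217, and at 60 min 10.8% of 5745 and 7.40% of 5693. With sites joined across times, the share was thus lower in each later set than in either 0 min set. The mean shares were 13.5% ± 2.06, 11.1% ± 1.10 and 9.12% ± 2.44 at 0, 30 and 60 min (SD, n = 2). Exact permutation tests gave p = 0.333 for 30 against 0 min (-2.38 percentage points) and for 60 against 0 min (-4.33 points), and p = 0.667 for 60 against 30 min (-1.95 points, n = 2). After Benjamini-Hochberg adjustment over the 12 tests of this family, p-values lay between 0.5 and 1. Outside the array the shares were 10.7% and 14.0% in the 0 min sets, 10.7% and 9.72% in the 30 min sets, and 9.42% and 6.37% in the 60 min sets. There both 60 min sets lay below all earlier sets, and for 30 against 0 min the exact permutation p was 0.667 (n = 2). With the array kept and sites joined within each time, the differences in mean share were smaller. They were -0.449 points for 30 against 0 min, -1.29 for 60 against 0 min and -0.838 for 60 against 30 min. None of these exact permutation tests gave the smallest possible p (n = 2). Of sites with an ssRNase call, 20.1%, 19.6% and 18.9% had no dsRNase name at 0, 30 and 60 min.

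**Figure D1:**
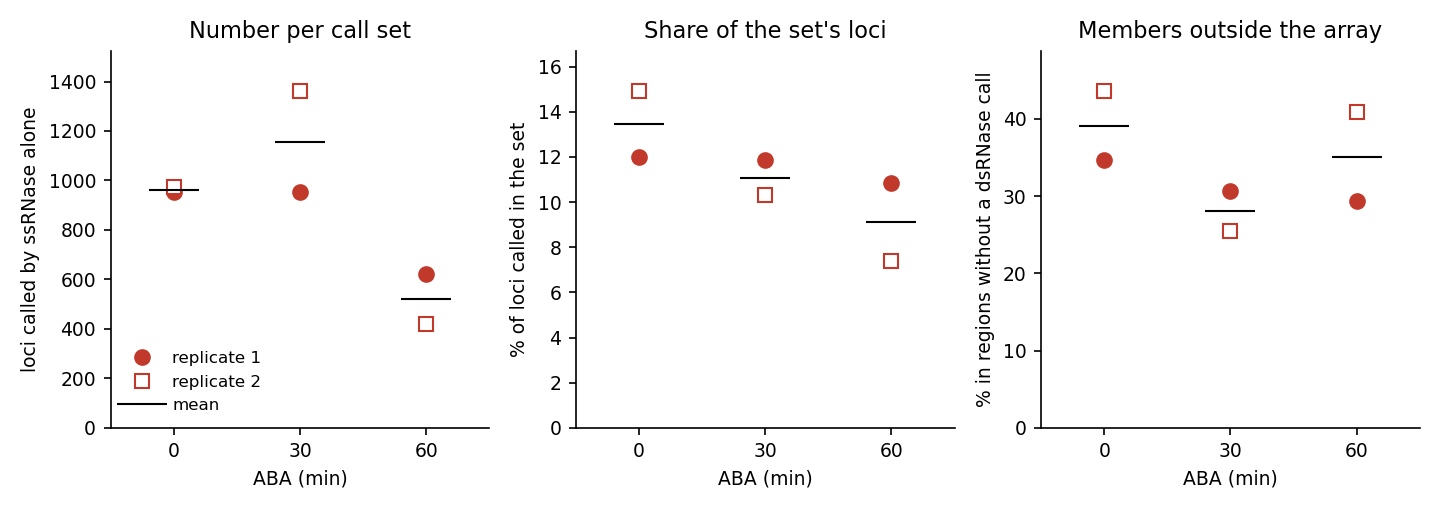
Number of ssRNase-alone loci in each ssRNase call set (left), their percent of all loci called in that set (middle), and, for those outside the chromosome 20 array, the percent lying in regions with no dsRNase call (right), by minutes of ABA. Each point is 1 call set and the bar is the mean of 2. The 60 min sets hold the fewest loci (623 and 421). In the right panel the mean is lowest at 30 min (30.6% and 25.5%), and the 60 min sets (29.3% and 40.9%) overlap these values.

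Most ssRNase-alone loci were seen at a single time. Of the 2716, 696 (25.6%) had calls at 0 min and no later time, 878 (32.3%) had calls only at 30 min, and 174 (6.41%) only at 60 min. Single-time loci thus made up 64.4% of the ssRNase-alone loci, against 49.1% of the both-RNase loci counted by their ssRNase calls. Outside the array these shares were 67.4% and 49.7%. A further 344 were called at 0 and 30 min, 135 at 30 and 60 min, and 101 at 0 and 60 min. The pattern of 30 and 60 min without 0 min held 4.97% of ssRNase-alone loci and 13.0% of both-RNase loci. Calls at all 3 times were found for 388 (14.3%), against 22.8% of both-RNase loci, and 100 of these 388 lay in the array. Outside it the shares at all 3 times were 11.4% and 21.9%. The array had no locus called at 60 min alone.

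By number of sets, 1579 loci were called in 1 ssRNase set, 482 in 2, 263 in 3, 145 in 4, 110 in 5 and 137 in all 6. Single-set loci were 58.1% of the ssRNase-alone loci and 42.8% of the both-RNase loci. Those called in all 6 sets were 5.04% and 10.4%. Outside the array the 2 shares of the ssRNase-alone loci were 60.9% and 3.45%. The single-set loci were unevenly spread, with 540 found in replicate 2 of 30 min alone and 67 in replicate 2 of 60 min alone. Loci of all 6 sets had a median width of 40 nt, and those of 1 set 26 nt, and 50 of the 137 lay in the array. The ssRNase-alone loci had a median width of 28 nt and a mean of 1.95 ssRNase sets, or 1.83 outside the array. Just beyond the limit of the choice, the 1440 loci with exactly 1 dsRNase set were 38 nt wide in the median and had a mean of 1.82 ssRNase sets. At the other end, the 6719 loci called in all 6 dsRNase sets were 111 nt wide in the median and had a mean of 3.17 ssRNase sets.

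Replicate support was then asked for at each time, as the percent of loci called in both ssRNase replicates among those called in either. At 0 min it was 26.0% for ssRNase-alone loci (397 of 1529) and 39.4% for both-RNase loci (3546 of 9000). At 30 min it was 32.6% of 1745 against 42.1% of 13333, and at 60 min 30.8% of 798 against 42.3% of 7302. Over all loci with an ssRNase call the shares were 37.4% at 0 min, 41% at 30 min and 41.2% at 60 min. The 95% Wilson interval of the ssRNase-alone share was 23.8 to 28.2% at 0 min, which covers counting error only. The mean difference was -11.5 percentage points with the same sign at all 3 times, and the exact sign-flip permutation test gave p = 0.25 (n = 3 times), the smallest p it can give. Outside the array the difference was -13.3 points. Replicates contributed unequally to the unsupported calls. At 30 min, 384 ssRNase-alone loci were found in replicate 1 only and 792 in replicate 2 only, and at 60 min 377 in replicate 1 only and 175 in replicate 2 only.

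The difference in support was not negative in the mean within classes of width. Loci under 30 nt made up 58.1% of the ssRNase-alone loci and 6.0% of the both-RNase loci, while 1.58% and 60.6% were at least 60 nt wide. Among loci under 30 nt, mean support over the 3 times was 21.7% for ssRNase-alone and 20.8% for both-RNase loci, a difference of 0.823 points (exact sign-flip permutation p = 1, n = 3 times). Its sign was mixed there, with -1.63 points at 0 min, 5.62 at 30 min and -1.53 at 60 min. Outside the array this class differed by 1.06 points in the mean, again with mixed signs.

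Among loci of 30 to 59 nt, support was 37.0% against 29.2%, and the 7.81 points were positive at all 3 times (exact sign-flip permutation p = 0.25, n = 3). Outside the array the same class had 33.7% against 28.1%, a difference of 5.61 points with the same sign at all 3 times. The 43 ssRNase-alone loci of 60 nt or more had 76.8% mean support against 48.1%, from 36, 40 and 27 loci at 0, 30 and 60 min. Of these 43, 17 lay in the array, and the 26 outside it had 64.9% against 47.0%, from 19, 23 and 10 loci. Against both-RNase loci of exactly 1 dsRNase set, support was 29.8% and 27.4%, a difference of 2.41 points (exact sign-flip permutation p = 0.25, n = 3). Outside the array this difference was 0.501 points with mixed signs (exact sign-flip permutation p = 0.75, n = 3). With 3 times, no test of this kind could pass a threshold of 0.05.

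**Figure D2:**
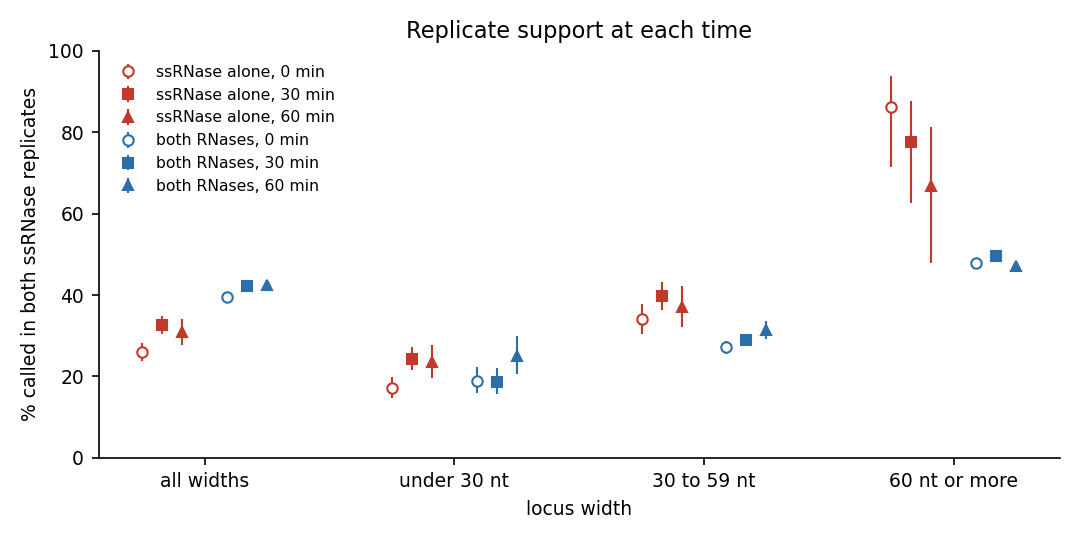
Percent of loci called in both ssRNase replicates among those called in either, by class of locus width, for ssRNase-alone loci (red, left in each class) and both-RNase loci (blue, right) at 0, 30 and 60 min. Bars are 95% Wilson intervals, for counting error only. Over all widths the red points lie below the blue (29.8% against 41.3% in the mean), and at 30 to 59 nt they lie above them.

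In width the ssRNase-alone loci were short. Sites with an ssRNase call had median widths of 27, 28 and 25 nt in ssRNase-alone loci (0, 30 and 60 min), against 60, 68 and 69 nt in both-RNase loci. The mean difference was -39 nt with the same sign at each time (exact sign-flip permutation p = 0.25, n = 3 times, the smallest possible), and -39.3 nt outside the array. A wider locus has more bases that a dsRNase call can overlap, so this width is partly tied to the choice and is given as a description. The joined ssRNase-alone loci had a median width of 28 nt, with quartiles of 22 and 34 nt and a widest locus of 100 nt. The dsRNase-alone loci had a median of 35 nt. A total of 506 ssRNase-alone loci (18.6%) were under 20 nt, and the narrowest was 1 nt.

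Changes that held in both replicates were few. A gained locus had a call in both ssRNase replicates of the later time and in no ssRNase replicate of the earlier one, and a lost locus the reverse. For 30 against 0 min, 181 ssRNase-alone loci (6.66%) were gained, against a background of 9.86% over all loci with an ssRNase call, and 63 (2.32%) were lost, against 1.92%. For 60 against 0 min, 40 (1.47%) were gained, against 3.99%, and 132 (4.86%) lost, against 5.22%. For 60 against 30 min, 25 (0.920%) were gained, against 0.627%, and 225 (8.28%) lost, against 9.05%. Losses thus lay near the background in each comparison, and the shares gained against 0 min were below it. Outside the array 176 were gained and 59 lost for 30 against 0 min, and 39 gained and 122 lost for 60 against 0 min. For 60 against 30 min 22 were gained and 220 lost there. These counts rest on both replicates: without replicate 1 of 30 min, for example, 765 loci counted as gained at 30 against 0 min, and without replicate 1 of 0 min 448 counted as lost.

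ssRNase-alone loci called in both replicates of a single time and in no other ssRNase set numbered 43 for 0 min, 118 for 30 min and 8 for 60 min. The same count was not made for both-RNase loci. Of the both-RNase loci, 14.9%, 28.9% and 5.31% had ssRNase calls, in either replicate, at 0, 30 and 60 min alone. The order of the times is thus not particular to ssRNase-alone loci. For the 43, 118 and 8 loci, the median distance to the nearest same-strand locus with a dsRNase call was 547 nt, 88.5 nt and 17.5 nt. The widest for 0 min were on chromosome 11 (5730360 to 5730422 and 5730211 to 5730272, plus strand, 63 and 62 nt) and chromosome 27 (324641 to 324694, minus strand, 54 nt). For 30 min they were a matching pair on the plus strand of chromosome 5 (17949968 to 17950029 and 18221068 to 18221129), each 62 nt wide, 50 nt from a dsRNase-called locus and with the same deposited score of 16.39, and a 57 nt locus on chromosome 25 (4454741 to 4454797, minus strand). The chromosome 5 pair may be copies that share reads. For 60 min they were a pair of neighbours on the minus strand of chromosome 23 (14549682 to 14549726 and 14549475 to 14549517, 45 and 43 nt) and a 30 nt locus on chromosome 7 (5846571 to 5846600, plus strand) that lay 1 nt from a dsRNase-called locus. All coordinates are 1-based with both ends included. The starts in the deposited lists were read as 0-based, so each lies 1 nt below the start given here. The genes at these loci were not analysed here.

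The next question was how far these loci lay from RNA with dsRNase calls. The median distance to the nearest same-strand locus with a dsRNase call was 146 nt, with quartiles of 33 and 1107.75 nt. From a both-RNase locus to the nearest other such locus the median was 27 nt, and from a dsRNase-alone locus it was 74 nt. The distribution had a long tail: 869 ssRNase-alone loci (32.0%) lay within 50 nt, 1840 (67.7%) within 500 nt and 359 (13.2%) beyond 10000 nt. More than 500 nt away were 32.3% of the ssRNase-alone loci, 7.47% of the both-RNase loci and 16.9% of the dsRNase-alone loci. The choice itself keeps ssRNase-alone loci off dsRNase sites, so these distances carry no test. In the array the median was 62 nt, outside it 161 nt, and to neighbours with replicated dsRNase calls (both replicates of at least 1 time) it was 403.5 nt.

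**Figure D3:**
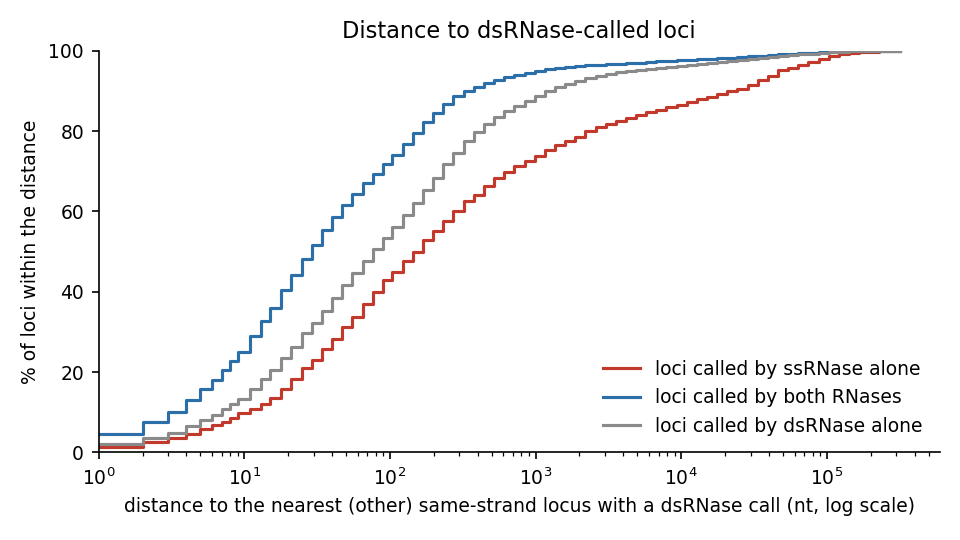
Cumulative percent of loci against the distance in nt (log scale) to the nearest same-strand locus with a dsRNase call, the locus itself left out, for ssRNase-alone, both-RNase and dsRNase-alone loci. Within 500 nt lie 67.7% of the ssRNase-alone loci, and 13.2% of them lie beyond 10000 nt.

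The mix of times differed with distance. Outside the array, loci called at 0 min alone were 16.6% of those within 10 nt of a dsRNase-called locus and 40.4% of those beyond 10000 nt. Loci called at 30 min alone were 34.4% of the nearest group, 41.1% of those 51 to 200 nt away and 17.3% of the farthest. Those called at 60 min alone showed no trend, with 4.38 to 10.3% over the 7 groups of distance. The median width was 29 nt in the nearest group and 22 nt in the farthest, so width moved with distance as well, and its part in the time pattern was not tested. The nearest neighbour lay on the 5′ side for 54.0% of the ssRNase-alone loci (1464, against 1249 on the 3′ side and 3 ties). Within 50 nt and outside the array it lay on the 5′ side for 51.2%.

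Where a dsRNase-called neighbour lay within 500 nt, its dsRNase calls tended to fall at the time of the ssRNase call for loci called at 0 or 60 min alone. Of the 376 loci called by ssRNase at 0 min alone, 85.9% had a neighbour with a dsRNase call at 0 min, and 51.1% and 44.9% had one with a call at 30 and 60 min. Of the 649 called at 30 min alone, these shares were 59.5%, 64.6% and 58.4%. Of the 119 called at 60 min alone, they were 39.5%, 53.8% and 72.3%. Each single-time group therefore had its highest share at its own time, where all 68026 loci with a dsRNase call had 68.1%, 62.5% and 60.3%. The 30 min group lay near this background at its own time (64.6% against 62.5%). The neighbour itself carried an ssRNase call for 29.2% of the 1672 loci with a neighbour this near, against 25.1% of all dsRNase-called loci. For the 190 loci called by ssRNase at all 3 times it was 44.7%.

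To describe surroundings without a nearest neighbour, same-strand sites of any time less than 500 nt from each other were grouped as regions. Of 21257 regions, 2195 (10.3%) held an ssRNase-alone locus, and 774 of these had no dsRNase call. In 717 of the 774 a single ssRNase-alone locus was all there was. Such regions held 859 ssRNase-alone loci (31.6%), of which 834 lay outside the array. Of the 859, 43 were called in all 6 sets. These 43 include loci of the chromosome 20 array, which may be copies that share reads. The 859 loci had a median width of 25 nt, against 29 nt in regions with a dsRNase call.

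Outside the array, the counts of loci in regions without a dsRNase call differed from those of the rest mainly at 30 min. Both kinds were fewest at 60 min. In regions without a dsRNase call, 281 and 380 were called in replicates 1 and 2 of 0 min. There were 253 and 320 in the 30 min sets and 150 and 141 in the 60 min sets. In regions with a dsRNase call the numbers were 530 and 492 in the 0 min sets, 574 and 933 in the 30 min sets, and 362 and 204 in the 60 min sets. The 30 min sets thus lay above both 0 min sets where dsRNase calls were near, and overlapped them where none were. The rise where they were near was largest in replicate 2 of 30 min, the set with most loci called (13217). As a share of a set's ssRNase-alone loci outside the array, those in regions without a dsRNase call were 34.6% and 43.6% in the 0 min sets, 30.6% and 25.5% in the 30 min sets, and 29.3% and 40.9% in the 60 min sets. Both 30 min values lay below both 0 min values, while the 60 min replicates spanned most of the range. This split by region was chosen after the data were seen, so it carries no test. Support in both replicates differed little between the kinds of region, with 21.3%, 31.1% and 23.3% at 0, 30 and 60 min without a dsRNase call and 24.5%, 30.7% and 28.3% with one.

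The array on chromosome 20 held 50 of the 137 loci called in all 6 sets. Of its 193 ssRNase-alone loci, 100 (51.8%) were called at all 3 times. They were called in a mean of 3.44 sets, against 1.83 outside, and their median width was 40 nt. In the 6 sets, 142 and 101 of them were called (0 min), then 126 and 108 (30 min) and 111 and 76 (60 min), so the times overlapped. Another 247 array loci were called with both RNases and 94 with dsRNase alone.

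Within the array, 18 of the ssRNase-alone loci called in all 6 sets were at least 50 nt wide and lay over 1000 nt from any both-RNase locus (1156 nt for the nearest). For 2 of the 18 a dsRNase-alone locus was closer than that, at 206 and 239 nt. From 5′ end to 5′ end they followed each other at 17 steps, of which 13 measured 11011 to 11703 nt with a median of 11574 nt, and the longest was 27254 nt. Within this longest step lay another ssRNase-alone locus of 86 nt called in all 6 sets (57255 to 57340). The limit of distance to both-RNase loci left it out of the 18. Of the 18, 10 were 85 to 91 nt wide and 8 were 52 to 56 nt wide. Each of the 8 narrower ones had another ssRNase-alone locus of 27 to 31 nt directly on its 5′ side, 0 to 4 nt away and called in 1 to 4 sets, and with it spanned 84 to 88 nt. The 10 wider ones had no other ssRNase-alone locus closer than 641 nt, so the 2 widths cover about the same length, joined in 10 cases and split in 8. These limits of support, width and distance were set after the data were seen. By the naming rule, which orders loci of equally many sets by width, the first 10 of the 137 six-set loci were all of this array. Examples are 23092 to 23182 (91 nt), 72936 to 73023 (88 nt), 244587 to 244674 (88 nt) and 94621 to 94707 (87 nt). The other loci recurred around them: a group of mostly both-RNase loci on the 5′ side, and a mixed group of short ssRNase-alone, both-RNase and dsRNase-alone loci on the 3′ side. A both-RNase group lay beyond the mixed group in most cases. At the 13 steps of 11011 to 11703 nt, it was the 5′-side group of the next of the 18 loci. The region with most ssRNase-alone loci (101517 to 103965) held 15 of them beside 1 both-RNase and 6 dsRNase-alone loci. Of the 15, 14 and 5 were called in the 0 min sets, 10 and 6 in the 30 min sets, and 7 and 2 in the 60 min sets, so replicate 1 held more at every time. The next regions, at 136031 to 138558 and 205037 to 207596, held 12 each, and those at 18350 to 20925 and 147570 to 150521 held 10 each.

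**Figure D4:**
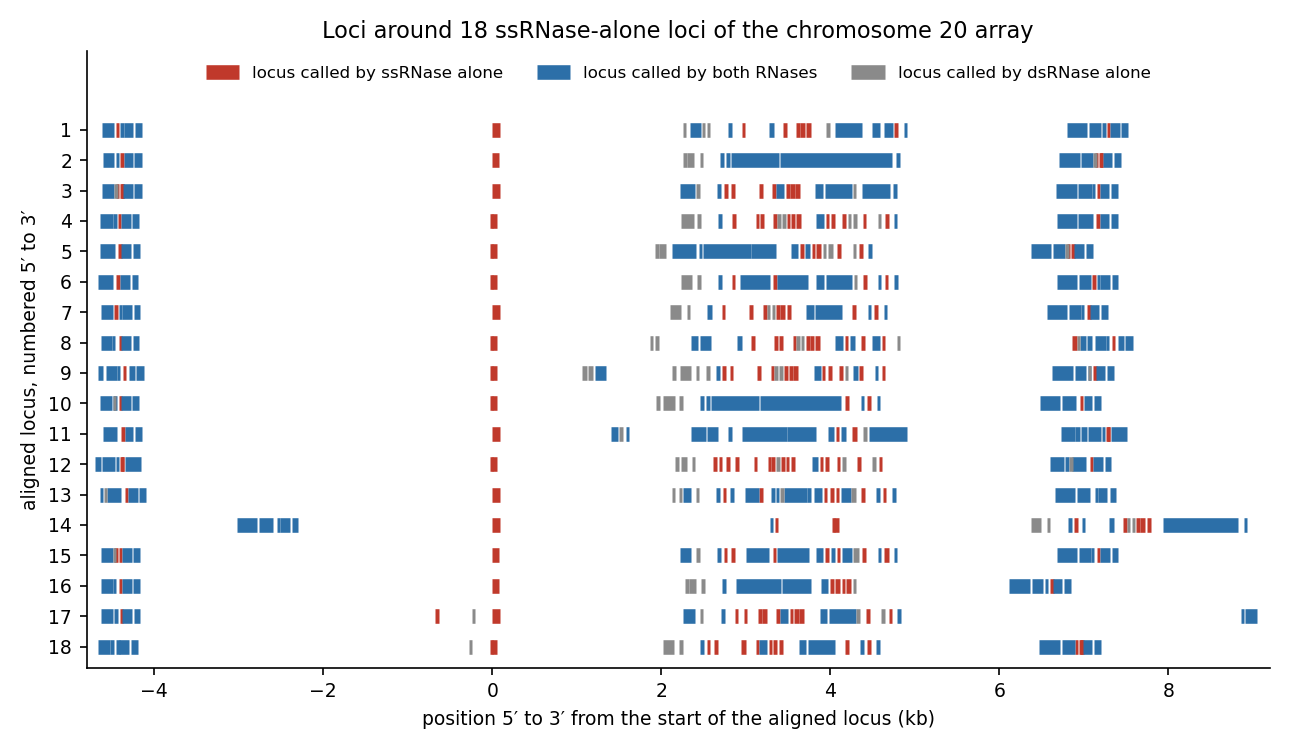
Loci of the chromosome 20 minus-strand array, aligned at the 5′ end of each of 18 ssRNase-alone loci of all 6 sets and drawn 5′ to 3′ in kb, 1 row per aligned locus, coloured by the RNases that called them. Narrow loci are drawn at a minimum width of 40 nt. The aligned locus at 0 was chosen as ssRNase-alone in every row, and most rows share the same groups of loci on both sides. Loci that lie between neighbouring aligned loci can be drawn in more than 1 row.

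Outside the array the largest group, found as a run of ssRNase-alone loci at most 25000 nt apart, lay on chromosome 15, between 2390024 and 2428526. These 38503 nt held 42 ssRNase-alone loci, 21 on each strand, and no locus with a dsRNase call on either strand. At 0 min 27 and 15 of them were called, at 30 min 16 and 19, and at 60 min 2 and 4. Both 60 min sets lay far below the 4 earlier sets. Over all chromosomes the 60 min sets also held the fewest ssRNase-alone loci, 623 and 421 against 953 to 1361 in the earlier sets. None of the 42 was called in all 6 sets, and 16 were called in 1 set. Of the 42, 12 overlapped an ssRNase-alone locus of the opposite strand. The widest was a minus-strand locus of 88 nt (2423709 to 2423796), called in both replicates of 0 min and replicate 2 of 30 min, and 36395 nt from the nearest dsRNase-called locus. In 4 same-strand pairs, loci of equal width were spaced by 32480 nt exactly, so part of the group may be copies that share reads. The 5 regions with most ssRNase-alone loci and no dsRNase call were all in this group, with 8, 7, 5, 5 and 4 loci.

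**Figure D5:**
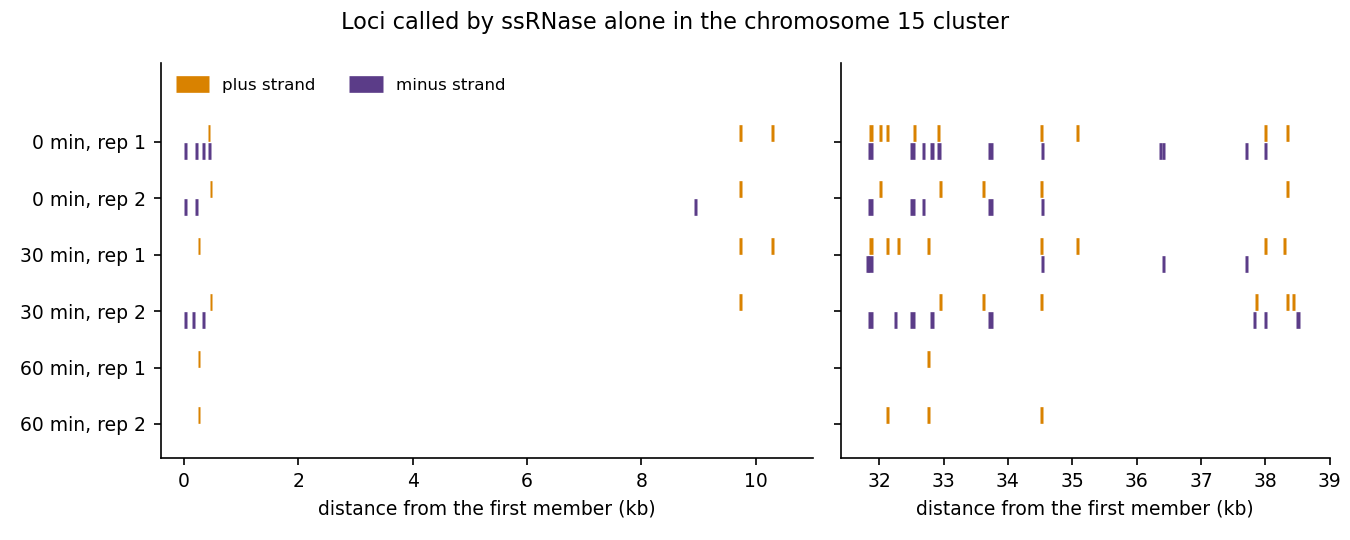
The 42 ssRNase-alone loci of the chromosome 15 group, by call set (rows) and strand (colour), against the distance in kb from the first locus of the group, with the empty stretch in the middle left out. Loci under 50 nt are drawn at 50 nt. Calls fill both strands at 0 and 30 min, and 2 and 4 loci remain called in the 60 min sets.

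The 11 other groups of at least 6 loci (6 to 11) went different ways. On chromosome 11, 6 loci within 231 nt (5730211 to 5730441), 3 on each strand and each overlapping one of the opposite strand, had 6 and 5 calls in the 0 min sets, 1 and 0 in the 30 min sets, and 1 and 2 in the 60 min sets. On the minus strand of chromosome 19 (2427566 to 2435878), 11 loci had 9 and 5 calls in the 0 min sets, 3 and 2 in the 30 min sets, and none in the 60 min sets. A chromosome 22 group of 11 loci (14129325 to 14168729, minus strand) had 0 and 1 calls in the 0 min sets, 5 and 7 in the 30 min sets, and 5 and 2 in the 60 min sets, among 152 loci with a dsRNase call. A chromosome 5 group of 6 loci (5690929 to 5701204) had no calls in the 0 min sets, 3 and 5 in the 30 min sets, and 1 and 0 in the 60 min sets. In the chromosome 11 and chromosome 19 groups both 0 min sets lay above all later sets, and in the chromosome 22 group both lay below them.

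The other 7 of these groups were as follows. A second chromosome 5 group (20650292 to 20664740, 8 loci) had 6 and 4 calls in the 0 min sets, 1 and 1 in the 30 min sets, and 0 and 2 in the 60 min sets. On chromosome 2 (3448 to 4374), 7 loci within 927 nt had 6 and 1, then 2 and 1, then 0 and 1. In these, the 0 min sets lay above all later sets on chromosome 5 and overlapped them on chromosome 2. The groups on chromosome 8 (15358491 to 15389558, 8 loci), chromosome 9 (6759771 to 6771969, 7 loci), chromosome 13 (17192016 to 17194987, 6 loci) and chromosome 21 (3460555 to 3477793, 7 loci) overlapped between 0 and 30 min. They had 4 and 4, 4 and 6, 3 and 2, and 4 and 4 calls in the 0 min sets. In the 30 min sets they had 3 and 5, 5 and 5, 1 and 4, and 3 and 5 calls, and in the 60 min sets 3 and 1, 4 and 0, 1 and 0, and 2 and 2. A chromosome 17 group (6773137 to 6780113, plus strand, 6 loci, 4 of them in all 6 sets) had 5 and 6 calls in the 0 min sets, 5 and 4 in the 30 min sets, and 5 and 6 in the 60 min sets, so its times overlapped. These groups were picked by size after the data were seen, so they are described without a test. Their calls were not divided by set size. Over all chromosomes the 0 min sets held 953 and 973 ssRNase-alone loci, the 30 min sets 953 and 1361, and the 60 min sets 623 and 421.

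Overlap with an ssRNase-alone locus on the opposite strand was found for 32 ssRNase-alone loci (1.18%), for 8 both-RNase loci (0.0469%) and for 5 dsRNase-alone loci (0.00981%). Of the 32, 12 were on chromosome 15 and 8 on chromosome 11, so 20 of the 32 came from 2 chromosomes. A clear pair on chromosome 21 was called in all 6 sets on both strands, at 3476678 to 3476741 (minus, 64 nt) and 3476683 to 3476745 (plus, 63 nt). An opposite-strand locus with a dsRNase call overlapped 12 ssRNase-alone loci (0.442%), 19 both-RNase loci (0.111%) and 28 dsRNase-alone loci (0.0549%). By strand as a whole, 50.1% of the ssRNase-alone loci were on the plus strand, against 55.4% of the both-RNase loci. Outside the array these shares were 53.9% and 56.2%.

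Some loci combined full support with isolation. Outside the array, 87 loci were called in all 6 ssRNase sets. On chromosome 5 a 41 nt locus (604313 to 604353, minus strand) was called in all 6 and lay 238056 nt from the nearest same-strand dsRNase-called locus. On chromosome 4 a 42 nt locus (21861135 to 21861176, minus strand) lay 152055 nt away, and on chromosome 21 a 21 nt locus (6652380 to 6652400, minus strand) lay 89493 nt away, both with calls in all 6 sets. The widest 6-set locus outside the array was on chromosome 6 (18322591 to 18322666, minus strand, 76 nt), 9194 nt from a dsRNase-called locus. These 6-set loci outside the array were added to the naming rule after the data were seen.

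By the rule for the farthest loci, the first was on chromosome 4 (6839214 to 6839239, minus strand), 326764 nt from a dsRNase-called locus and called in replicate 2 of 0 and of 30 min. The chromosome 19 locus at 6994839 and the chromosome 3 locus at 5827113 lay 283294 and 256802 nt away, and each was called in 1 set. The chromosome 17 locus at 15954359 (16 nt wide, 212854 nt away) was likewise called in 1 set. Isolation by distance therefore came with full support in 1 of the 5 farthest loci, the one on chromosome 5. The widest ssRNase-alone locus of all was on chromosome 23 (12787312 to 12787411, plus strand, 100 nt). It was called in 5 of 6 sets, all but replicate 1 of 60 min, and lay 11278 nt from a dsRNase-called locus.

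A score was deposited with each site by the authors, with no stated unit, and it was used only to place sites within their own list. On chromosome 17 a plus-strand locus (6773176 to 6773227, 52 nt, 6 sets, chosen after the values were seen) scored above 99.7%, 99.9% and 99.8% of the sites in the 0, 30 and 60 min lists. The chromosome 21 minus-strand locus above scored above 97.7%, 95.1% and 81.7% of the sites in these lists. Among sites of a single call set, the median score was 9.48 in ssRNase-alone loci, 8.495 in ssRNase sites of both-RNase loci and 8.65 in dsRNase sites at 0 min. At 30 min these medians were 7.58, 7.27 and 8.95, and at 60 min 8.35, 8.35 and 8.65. The median of ssRNase-alone loci was thus not below that of both-RNase loci at any of the 3 times.

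The share of ssRNase-alone loci among all loci varied by chromosome, outside the array, between 2.83% on chromosome 10 and 4.90% on chromosome 15. Among loci with an ssRNase call it lay between 9.72% on chromosome 26 and 18.7% on chromosome 11.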

How the data were processed

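PIP-seq libraries were strand-specific, per the labels' protocols. Cutadapt 1.2.1, TopHat2 2.0.10 and the mouse build mm10 are named in the submitters' processing notes. The lists use 27 chromosomes and scaffolds, so the build of their coordinates is unknown here, and the peak caller was not given in the sources used here. Each of the 3 lists deposited by the authors holds position, strand, merged call names and a score of unstated unit. The naming table (26 chromosomes, another build) was not used.

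Sites were joined into loci, regions and groups as stated, with Python 3.11.15, pandas 2.3.3 and numpy 2.4.6. The classing recovered 200 of 200 planted loci on simulated lists. Call sets were compared by exact permutation, classes by exact sign flips over times. The members and lists were chosen with earlier results of these data known. Named were the 10 loci with most call sets (ties by width, then position), the 5 widest, the 5 farthest, the 5 regions with most members with and without a dsRNase call, and the 3 widest of each single time. Deviations of same-numbered replicates correlated at -0.02, -0.004 and 0.07 between times, so replicates were not paired. Joining distance, strand, score, width, scaffolds and left-out sets were varied. Genes and sequences were not analysed here.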

Additional observations from a re-analysis of the deposited data

Results flagged for a closer look

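Signal outside the chromosomes was found on the scaffolds, which enter no comparison above. Of 394 loci there, 44 (11.2%) were called by ssRNase alone, against 3.84% of the loci on chromosomes. The 44 lie above the 3 that a count of 0 allows, which is a floor and not a test. They lay on 22 scaffolds with at most 7 on one, and 21 of them were called in 1 set.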

How the results depend on the processing

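The number of ssRNase-alone loci, 2716, was 1744 when sites up to 50 nt apart were joined, 1713 with the upper 3 in 4 of each list by score, and 6968 summed over times when sites were joined within each time. With 1 set left out it ranged from 2181 to 3046. The median distance of 146 nt was 201.5 nt and 455 nt with sites up to 10 and 50 nt apart joined, and 403.5 nt to neighbours of both dsRNase replicates. The support difference of -11.5 points turned to 5.59 with the upper scores, to 0.823, 7.81 and 28.6 in the 3 width classes, and to 2.41 against loci of 1 dsRNase set; without the array the last 4 values were 1.06, 5.61, 17.9 and 0.501. The cause was not tested. The difference per set of 30 against 0 min ranged from -12 to 397.5 with 1 set left out. Joining up to 50 nt gave 109 gained and 40 lost at 30 against 0 min, 20 gained at 60 against 0 min and 11 gained at 60 against 30 min. The upper scores gave 113 lost at 30 against 0 min and 39 gained at 60 against 30 min. With 1 set left out, which needs fewer calls, gains and losses ranged from 181 to 765 and 63 to 448 (30 against 0 min), 40 to 229 and 132 to 624 (60 against 0 min), and 25 to 160 and 225 to 913 (60 against 30 min). With the replicate number as a block the differences per set stayed 194, -441 and -635, with exact permutation p of 1, 0.5 and 0.5 (n = 2 pairs), and no call changed. Gains and losses could not be counted with sites joined within each time. Leaving out the chromosome 20 array, chosen after seeing the data, changed no direction of these results. The unknown depth limits every missing call.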
